A study of Mus musculus with 45 samples.

Results

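Gbp2, Gbp2b, Gbp3, Iigp1, Igtp and Irgm1 encode GTPases that cells make in response to interferon. These 6 genes were followed on 45 microarrays of mouse heart development, among 18193 measured genes. They were listed by name, with earlier results of these data known, and were chosen by their measured levels in stem cells and in the E7.5 embryo. Those levels and their differences are therefore given as a description, without a test. Each gene is shown by 1 probe set, that of the highest mean over the 45 arrays.

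The 15 groups held 3 arrays each. The earliest in order was embryonic stem cells (ESC) from R1, an established mouse line that is not of CD1 origin. The others were tissue of wild-type CD1 mice. Whole embryos were taken at embryonic day 7.5 (E7.5) and the heart tube at E8.5. Ventricles, left and right apart, were taken at 4 fetal stages (E9.5 and E12.5, then E14.5 and E18.5), at day 3 after birth and from adults. The labels name no drug or mutation in any group. Replicates were described as biological. The number pooled in each was 30 to 50 at E7.5, E8.5 and E9.5. It was 10 to 20 at the middle stages (E12.5, E14.5) and 3 to 5 at E18.5. A replicate was 1 heart at day 3 and in the adult, and hearts of these ages were frozen and pulverized before RNA extraction. The stem cells are a single line in culture. Strain, culture and cell type therefore differ together between the stem cells and every tissue group, and their parts cannot be told apart here.

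Interferons bind receptors that signal through Janus kinases to STAT proteins, which enter the nucleus and bind the promoters of interferon-stimulated genes. Interferon gamma acts mainly through gamma-activated sites (GAS), and type I interferons mainly through interferon-stimulated response elements (ISRE), which IRF proteins also bind. The guanylate-binding proteins (GBPs) and the immunity-related GTPases (IRGs) are 2 families of such induced proteins, best known for attacking the membrane compartments in which intracellular parasites and bacteria live. Gbp2, Gbp2b (long known as mouse Gbp1) and Gbp3 are GBPs. Iigp1, also called Irga6, is an effector IRG that loads onto the parasite vacuole. Igtp (Irgm3) and Irgm1 are regulatory IRGs that keep effector IRGs inactive on the cell's own membranes.

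Gbp3, Gbp2b and Gbp2 lie side by side on chromosome 3 (GRCm38.p6, positions 142560016 to 142573213, 142594816 to 142619179 and 142620663 to 142638008). Igtp lies on chromosome 11 at 58199556 to 58207592, next to Irgm2, and Irgm1 lies on chromosome 11 at 48865245 to 48871420. RefSeq promoters (GRCm38.p6, 250 bases before to 50 bases after a start) were at hand for 5 of the 6 genes, Iigp1 being the other. Each of the 5 held the ISRE letters GAAA-NN-GAAA (N is any base, written here with dashes) on either strand, Gbp3 at 1 of its 2 starts. Among all 32851 promoters of that length, 1131 (3.44%) held them. The promoters are shown because the genes share these letters whether or not they shared a pattern across the arrays. In the sequences below, written 5′ to 3′ along the gene's strand, capitals mark the ISRE letters, which read GAAA-NN-GAAA on the strand shown for Irgm1 and Igtp and on the opposite strand for the GBP genes. Gbp2 and Gbp2b are shown whole and the others as 60 bases around the match.
Gbp2 (chr3:142620413-142620712, + strand): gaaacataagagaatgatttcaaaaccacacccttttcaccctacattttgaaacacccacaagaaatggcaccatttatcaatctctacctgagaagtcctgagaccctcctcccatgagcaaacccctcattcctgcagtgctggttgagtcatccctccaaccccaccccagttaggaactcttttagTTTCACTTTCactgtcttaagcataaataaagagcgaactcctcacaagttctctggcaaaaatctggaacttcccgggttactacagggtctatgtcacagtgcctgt
Gbp2b (chr3:142594597-142594896, + strand): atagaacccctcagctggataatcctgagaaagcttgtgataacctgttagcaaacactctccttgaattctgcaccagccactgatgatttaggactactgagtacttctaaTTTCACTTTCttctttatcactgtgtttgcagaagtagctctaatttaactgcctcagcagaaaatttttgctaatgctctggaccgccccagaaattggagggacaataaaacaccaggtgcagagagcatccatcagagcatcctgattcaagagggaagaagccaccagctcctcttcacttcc
Gbp3 (chr3:142559974-142560033, + strand): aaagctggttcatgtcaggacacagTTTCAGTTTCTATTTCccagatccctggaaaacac
Irgm1 (chr11:48871416-48871475, - strand): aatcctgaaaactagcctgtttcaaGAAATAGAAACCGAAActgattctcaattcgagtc
Igtp (chr11:58199497-58199556, + strand): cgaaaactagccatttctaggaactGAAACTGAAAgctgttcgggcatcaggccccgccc

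The ISRE letters began 59 bases before the start in Gbp2 and 137 bases before it in Gbp2b. Gbp3 and Irgm1 each held a pair of overlapping matches, beginning 45 and 39 bases before the start in Gbp3 and 30 and 24 bases before it in Irgm1. In Igtp they began 34 bases before the start. The GAS letters TTCNNNGAA, present in 2726 of the 32851 promoters, were found in Igtp as TTCTAGGAA, beginning 45 bases before the start. In the other windows the GAS letters were not present. These matches describe letters, not bound sites.

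Values were log2 RMA values, so a difference of 1 is a 2-fold difference. Array medians ran from 5.35 to 5.47. Olfactory and vomeronasal receptor genes, 71 genes used in sensory neurons, had a median of 3.52 and a 95th percentile of 5.33, taken here as the top of background. Pou5f1 and Nanog, which define pluripotent cells, were at 13.8 and 11.6 in the stem cells, and cardiomyocyte markers averaged 12.4 to 13.7 in the heart groups against 5.66 in stem cells. In 3 arrays markers of another tissue stood more than 1.5 above the other replicates: decidua in E7.5 replicate 2, visceral endoderm in E8.5 replicate 2 and atrium in adult right ventricle replicate 3. Where a call differs in a fit without these 3 arrays, that value is given beside the result. The rule compares list means between replicates, so it misses markers that replicates share or that few genes carry. Prl8a2, of the decidua list, read 8.57 to 11.41 at E8.5. It reached 9.86 and 10.00 in left and right ventricle at E9.5 and 9.11 in the left at E14.5, against a mean of 3.24 in stem cells.

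**Figure D1:**
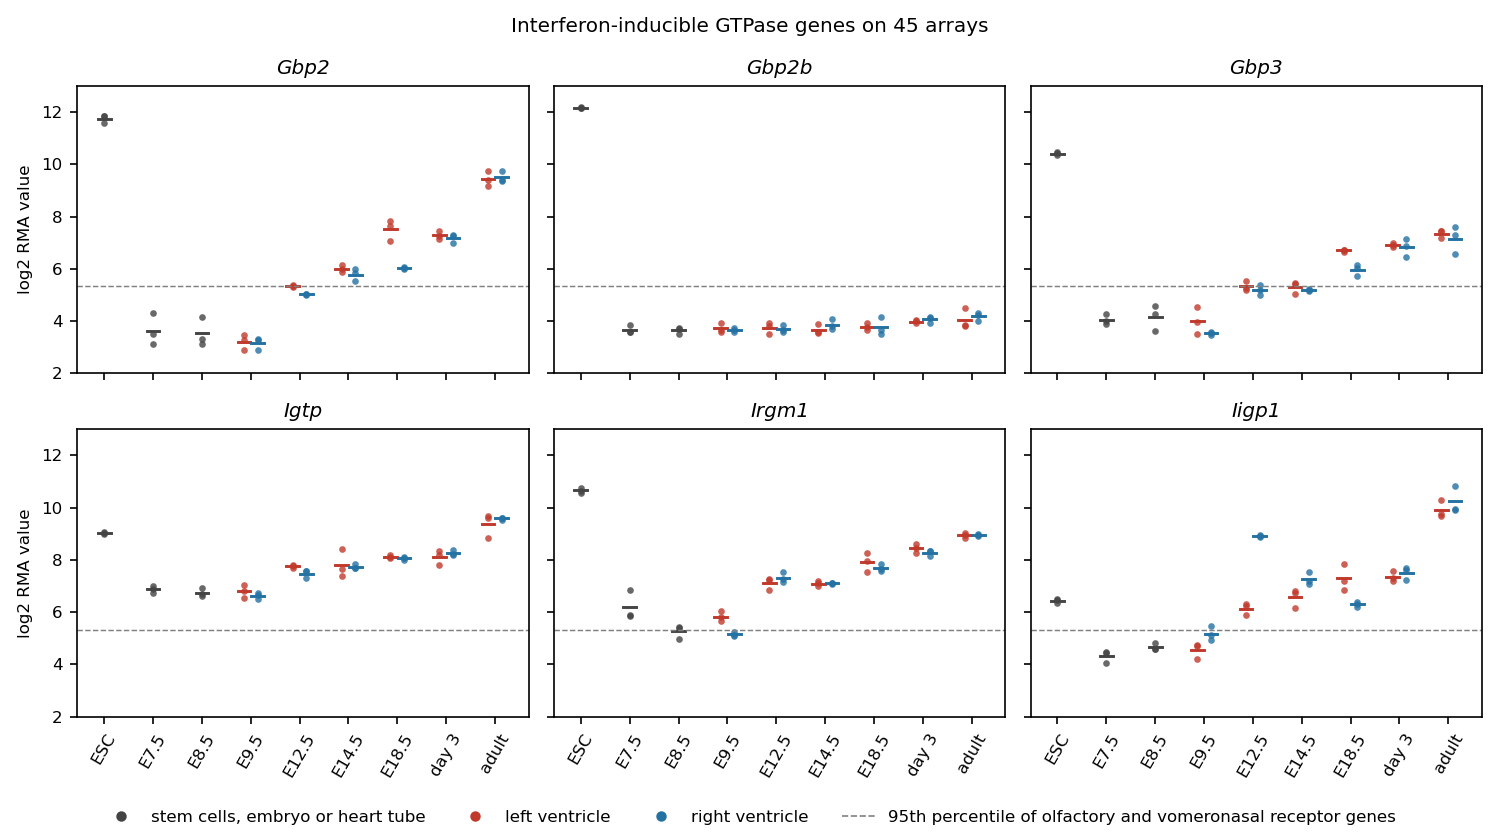
Log2 RMA value of each gene on every array (y axis) by stage (x axis), with left and right ventricles marked separately and the dashed line at 5.33, the 95th percentile of olfactory and vomeronasal receptor genes. Gbp2b is at 12.1 to 12.2 in the stem cells and at 3.50 to 4.51 on all other arrays, whereas Gbp2, Iigp1 and Igtp are at 8.85 to 10.84 in the adult ventricles.

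In stem cells all 3 guanylate-binding protein genes stood far above background. Gbp2b read 12.20, 12.14 and 12.15 on the 3 stem cell arrays. On the other 42 arrays it read 3.50 to 4.51, each of them under the background limit of 5.33. The lowest stem cell array was 7.63 above the highest of the other 42, the widest such gap among the 18193 genes. Gbp2b was 8.49 lower in the E7.5 embryo than in stem cells, a difference exceeded in size by 1 other gene.

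Gbp2 read 11.84, 11.57 and 11.84 in stem cells and 3.10, 4.30 and 3.50 in the E7.5 embryo. That is a difference of -8.12, the next in size after Gbp2b, and of -8.45 without the E7.5 array that carried decidual markers. Gbp3 read 10.46, 10.34 and 10.44 in stem cells and 3.98, 4.28 and 3.89 in the E7.5 embryo, a difference of -6.36. Both genes were thus at background at E7.5. Neither reached its stem cell level at any later stage: the lowest stem cell array exceeded the highest tissue array by 1.83 for Gbp2 and by 2.75 for Gbp3.

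The IRG genes differed more among themselves. Irgm1 read 10.65, 10.58 and 10.76 in stem cells and 5.86, 5.89 and 6.84 in the E7.5 embryo, a difference of -4.47. Its lowest stem cell array was above every tissue array, by 1.54. Igtp read 9.06, 9.02 and 8.98 in stem cells and 6.88, 6.72 and 7.01 at E7.5, a difference of -2.15. Iigp1 read 6.49, 6.47 and 6.35 in stem cells and 4.06, 4.47 and 4.42 at E7.5, a difference of -2.12. For Igtp and Iigp1 the adult ventricles, not the stem cells, held the highest values. The mean over stem cells minus the mean over the 6 adult arrays was 8.05 for Gbp2b, 3.16 for Gbp3, 2.28 for Gbp2, 1.72 for Irgm1, -0.46 for Igtp and -3.64 for Iigp1. A gap between stem cells and all tissue arrays was present for 4 of the 6 genes and, over all genes, for 10.9%. This share is background only, since stem cell levels chose the genes.

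From E7.5 to E8.5 the means of Gbp2, Gbp2b, Gbp3 and Igtp differed by -0.13 to 0.11. Irgm1 was 0.93 lower in the heart tube, at 5.43, 4.98 and 5.40, and Iigp1 was 0.36 higher, at 4.60, 4.83 and 4.59. These values carry no test. From E8.5 to E9.5, the first tested step, differences ran from -0.39 to 0.22 and 0 of 6 genes were called, against 26.9% of all genes, by limma with an adjusted p threshold of 0.05 (1 of 6, Gbp3, had an unadjusted p under 0.05, at 0.0473). In the fit without the 3 arrays standing apart, Gbp3 was called lower at E9.5 (-0.66, adjusted p = 0.00534 in limma). Its arrays read 3.62 to 4.56 at E8.5 and 3.47 to 4.55 at E9.5, all under the background limit, so this difference lies within background.

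Ordered by group mean, the genes showed 3 arrangements. Gbp2, Gbp3 and Irgm1 were headed by stem cells (11.75 ± 0.15, 10.41 ± 0.06 and 10.66 ± 0.09, SD, n = 3), followed by the adult ventricles and then by those of day 3 and E18.5, and the groups of E7.5, E8.5 and E9.5 came last. Iigp1 and Igtp were headed by the adult right ventricle (10.24 ± 0.53 and 9.59 ± 0.05) and the adult left ventricle (9.91 ± 0.33 and 9.38 ± 0.46). Stem cells came next for Igtp (9.02 ± 0.04), whereas 8 groups preceded them for Iigp1 (6.44 ± 0.08). Gbp2b had stem cells at 12.16 ± 0.03 and 14 groups with means between 3.65 and 4.18. Of the 14 pairs of neighbours in each order, the ranges of the 3 arrays overlapped for 8 pairs in Gbp2, 13 in Gbp2b, 10 in Gbp3, 9 in Iigp1, 10 in Igtp and 9 in Irgm1, so most neighbours did not differ beyond their spread.

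In the ventricles, 5 of the 6 genes rose between E9.5 and E12.5, where 20.1% of all genes were called higher and 38.1% were called in either direction. Iigp1 rose by 2.67 ± 0.15 (SE, adjusted p = 4.51e-12 in limma), Gbp2 by 2.00 ± 0.22, Irgm1 by 1.72 ± 0.17, Gbp3 2.84-fold and Igtp by 0.90 ± 0.12. Their adjusted p in limma were 1.59e-06 or less. Gbp2 went from 2.88 to 3.46 on the 6 arrays of E9.5, all at background, to 5.00 to 5.37 at E12.5, so its fold change starts from values that hold little signal. Gbp3 read 3.47 to 4.55 at E9.5, all at background, and 5.00 to 5.52 at E12.5. The E12.5 medians of Gbp2 (5.18) and Gbp3 (5.24) were still under the background limit. A second probe set of Gbp2 rose less. It averaged 3.34 and 3.22 in left and right ventricles at E9.5, and 4.84 and 4.23 at E12.5, all under that limit. Igtp was above background at both stages, at 6.52 to 7.04 and 7.29 to 7.80, and its arrays did not overlap. Iigp1 was under the background limit on 5 of the 6 arrays of E9.5 (4.20 to 5.46 over the 6) and Irgm1 on the 3 right ventricle arrays. Gbp2b differed by 0.03 ± 0.09. The median difference of the 6 genes was 1.61 and that of all genes 0.04.

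Between E12.5 and E14.5 little moved. Gbp2 rose by 0.71 ± 0.22 (adjusted p = 0.0358 in limma), a call that was lost when any 1 of the 6 replicates was left out (adjusted p 0.0549 to 0.109). Iigp1 fell by 0.60 ± 0.15 (adjusted p = 0.00993), a mean over ventricles that moved in opposite directions, as described below. Its call was lost without E12.5 replicate 2 (-0.55, adjusted p = 0.0553) or E14.5 replicate 1 (-0.48, 0.0820). The share of all genes called was 13.3%, with 7.18% higher and 6.09% lower.

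Between E14.5 and E18.5, 3 genes rose, against 11.8% of all genes called higher and 30.6% called in either direction. Gbp3 rose by 1.09 ± 0.19 (adjusted p = 8.33e-05 in limma), Gbp2 by 0.88 ± 0.22 (0.00341) and Irgm1 by 0.72 ± 0.17 (0.0027). Gbp3 started at 5.03 to 5.46 on the 6 arrays of E14.5, with a median of 5.21, under the background limit. Irgm1 read 6.98 to 7.18 on the 6 arrays of E14.5 and 7.53 to 8.28 at E18.5, and these ranges did not overlap. Igtp differed by 0.31 ± 0.12 with an adjusted p of 0.0503 in limma, just outside the threshold.

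Around birth, from E18.5 to day 3, Iigp1 rose by 0.63 ± 0.15 (adjusted p = 0.00467 in limma), Irgm1 by 0.55 ± 0.17 (0.0261) and Gbp3 by 0.53 ± 0.19 (0.0491). The background was 9.94% called higher and 20.2% in either direction. Leaving out single replicates ended the call of Gbp3 in 5 of 6 cases and that of Irgm1 in 4 of 6. Without E18.5 replicate 1 or 2, or day 3 replicate 1 or 2, the adjusted p of Irgm1 was 0.0738 to 0.103. For Gbp3 it was 0.0635 to 0.188 in the 5 cases, all but day 3 replicate 2. Gbp2 differed by 0.45 ± 0.22 (adjusted p = 0.165). It was called in the limma fit without the 3 arrays standing apart (0.45, adjusted p = 0.0115), although none of them is of these stages, and in a fit of the compared groups alone (0.00662).

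From day 3 to the adult the strongest postnatal rises followed. Iigp1 rose 6.26-fold (2.65 ± 0.15, adjusted p = 6.96e-13 in limma), Gbp2 4.75-fold (2.25 ± 0.22, 8.54e-09) and Igtp 2.46-fold (SE 0.12 on the log2 scale, 1.85e-09). Irgm1 rose by 0.58 ± 0.17 (0.00782; in left ventricles alone its adjusted p was 0.0566). Gbp3 differed by 0.39 ± 0.19 (adjusted p = 0.0900) and Gbp2b by 0.09 ± 0.09. The count of 4 of 6 stands beside 22.3% of all genes called higher and 48.8% called in either direction. In the fit without the 3 arrays standing apart, which include the adult right ventricle array with atrial markers, Iigp1 rose by 2.70, Gbp2 by 2.31, Igtp by 1.33 and Irgm1 by 0.57, and Gbp3 was called as well, at 0.41 (adjusted p = 0.0257 in limma). Housekeeping scaling of each array shifted the median over all genes by 0.38 at this step, 83.2% of the calls were higher in place of 45.8%, and all 6 genes were called higher.

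Adult arrays of 4 genes lay above every one of the 30 earlier ventricle arrays: Gbp2 by 1.34, Iigp1 by 0.72, Igtp by 0.43 and Irgm1 by 0.25. Such a gap was found in 8.56% of all genes. For Gbp3 and Gbp2b the adult arrays overlapped the earlier ones. Gbp3 read 7.19, 7.43 and 7.43 in the adult left ventricle and 6.57, 7.59 and 7.31 in the right, against 6.45 to 7.15 at day 3.

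Over the whole course from E9.5 to the adult all 6 genes were called higher, with 41.6% of all genes called higher and 74.6% called in either direction. Gbp2 rose 78.1-fold (6.29 ± 0.22, adjusted p = 1.27e-17 in limma), Iigp1 37.1-fold (5.21 ± 0.15, 4.02e-19), Gbp3 11.3-fold, Irgm1 10.9-fold and Igtp 6.83-fold. At E9.5 Gbp2 and Gbp3 were at background on all 6 arrays, Iigp1 on 5 and Irgm1 on 3, so these fold changes start from values that hold little signal. The second probe set of Gbp2 rose less, from 3.34 and 3.22 in left and right ventricles at E9.5 to 8.65 and 8.77 in the adult. Gbp2b was called at 0.42 ± 0.09 (adjusted p = 0.000314, and 0.0544 in left ventricles alone), although all of its 36 ventricle arrays lay under the background limit. The median difference was 3.47 for the 6 genes and 0.13 for all genes.

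Iigp1, on chromosome 18, was the gene of the 6 that separated the ventricles most. At E12.5 it read 8.92, 8.97 and 8.86 in the right ventricle and 5.89, 6.30 and 6.22 in the left. The right ventricle was thus 6.86-fold higher (left minus right -2.78 ± 0.22 SE, adjusted p = 1.34e-10 in limma), with no overlap. This was the fifth largest difference between the ventricles at E12.5 among 18193 genes, of which 1.26% were called and 0.918% were lower in the left. A second probe set of Iigp1 read 5.32 on average in the left and 7.80 in the right ventricle. Over all alternatives the difference ran from -2.86 to -2.63. The other 5 genes differed by -0.19 to 0.32 at this stage and were not called.

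After E12.5 Iigp1 fell again in the right ventricle and not in the left. In a fit of right ventricles alone Iigp1 rose by 3.74 from E9.5 to E12.5, fell by 1.64 to E14.5 (adjusted p = 2.64e-06 in limma), fell by 0.97 to E18.5 (0.000463), rose by 1.198 to day 3 (9.09e-05) and rose by 2.74 to the adult. In left ventricles alone it rose by 1.59 from E9.5 to E12.5, was 0.44 higher at E14.5 (0.276), rose by 0.72 to E18.5 (0.0129), was 0.07 higher at day 3 (0.874) and rose by 2.55 to the adult. Left and right arrays read 6.17, 6.73 and 6.82 against 7.199, 7.54 and 7.08 at E14.5. At E18.5 the order was turned, with 7.18, 7.86 and 6.84 in the left and 6.20, 6.30 and 6.39 in the right ventricle.

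At E14.5 Iigp1 was still lower in the left ventricle (-0.70 ± 0.22, adjusted p = 0.0432 in limma, with 8.51% of all genes called and 4.27% lower in the left). This call was lost without left replicate 1 or 2 or right replicate 1 or 2 (adjusted p 0.0916 to 0.196), in a fit of the compared groups alone (0.0833) and with the mean of all probe sets (-0.53, 0.126). At E9.5, where 3.50% of all genes were called, Iigp1 was not called (-0.63 ± 0.22, adjusted p = 0.131). Irgm1 was higher in the left ventricle at E9.5, at 5.82, 5.64 and 6.02 against 5.13, 5.09 and 5.22 (0.68 ± 0.17, adjusted p = 0.0175). That call was lost without left replicate 3 (0.58, adjusted p = 0.139), right replicate 1 (0.67, 0.0769) or right replicate 2 (0.65, 0.0545). Of 24 leukocyte markers, 2 were higher in the left ventricle at E9.5, beside 2.00% of all genes. Their summed linear level (each log2 value taken as a power of 2) was 1753 to 1849 in the left and 1111 to 1300 in the right ventricle, and their part was not tested.

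At E18.5, 3 genes were higher in the left ventricle, where 2.84% of all genes were called higher and 4.95% were called in either direction. Gbp2 read 7.64, 7.82 and 7.08 in the left and 6.08, 6.01 and 6.02 in the right ventricle, a 2.79-fold difference (1.48 ± 0.22, adjusted p = 7.17e-05 in limma). Iigp1 was 1.99-fold higher (1.00 ± 0.22, 0.00629), a call lost in a fit of the compared groups alone (0.0987). Gbp3 was 1.66-fold higher (0.73 ± 0.21, 0.0400), at 6.66, 6.71 and 6.74 against 5.74, 6.02 and 6.15. None of the 3 genes had overlapping arrays, which only describes genes already called, since the share of all genes without overlap was not counted. Irgm1 (0.24 ± 0.17) and Igtp (0.06 ± 0.18) were not called.

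Markers of other cells differed between the same E18.5 arrays. Leukocyte markers averaged 7.21, 7.01 and 6.58 in the left ventricle and 6.24, 6.30 and 6.31 in the right, and 13 of the 24 were called higher in the left, beside 2.84% of all genes. Their summed linear level ran from 3885 to 6213 in the left and from 2912 to 3033 in the right ventricle. Ptprc, the pan-leukocyte phosphatase CD45, averaged 7.33 and 6.03. Fibroblast markers were higher in the left ventricle as well, averaging 10.75, 10.69 and 10.90 there and 10.48, 10.44 and 10.39 in the right. The list of visceral endoderm markers averaged 5.47, 6.89 and 5.40 in the left and 5.11, 4.76 and 4.76 in the right ventricle. Its genes were split. Afp averaged 9.55 in the left and 5.72 in the right and Ttr 8.64 and 6.74. Cubn (4.80 and 4.62), Foxa1 (3.30 and 3.36) and Cldn6 (4.75 and 4.78) were under the background limit in both. The list mean therefore does not name a tissue here. Left replicate 2 had its highest value, and that array also held the highest value of Gbp2 and of Iigp1. Without it Gbp2 was still called (1.33, adjusted p = 0.0028 in limma), and Iigp1 (0.71, 0.132) and Gbp3 (0.73, 0.163) were not. The call of Gbp3 was also lost when left replicate 1 or any 1 of the right replicates was left out (adjusted p 0.0517 to 0.201 over these 5 cases). The part of these cells in the difference was not tested.

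At day 3 and in the adult none of the 6 genes was called between the ventricles, and nearly no other gene was (0.00550% and 0.0165%). By limma, 0 of 6 also had an unadjusted p under 0.05 at either stage. Averaged over 6 stages, Gbp2 was higher in the left ventricle (0.35 ± 0.09, adjusted p = 0.0207 in limma) and Iigp1 lower (-0.59 ± 0.09, 3.71e-05), with 2.97% of all genes called, 1.25% higher and 1.72% lower. Gbp3 was not called (0.29 ± 0.09, adjusted p = 0.0637), but was in the fit without the 3 arrays standing apart (0.30, 0.0306). The averages of Gbp2 and Iigp1 cover differences that were not the same at each stage. An F-test of the dependence of this difference on stage gave an adjusted p of 1.32e-08 for Iigp1, the eighth smallest of all genes, and of 0.00887 for Gbp2 (0.0568 without left replicate 2 of E18.5), with 5.85% of genes called. For Irgm1 it was 0.157, for Gbp3 0.480, for Igtp 0.609 and for Gbp2b 0.887. In single-ventricle fits, Gbp2 rose from E14.5 to E18.5 by 1.51 in the left ventricle (adjusted p = 6.77e-05) and was 0.26 higher in the right (0.494). From E18.5 to day 3 it rose by 1.14 in the right (0.00137) and was 0.24 lower in the left (a value of -0.24, 0.580).

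**Figure D2:**
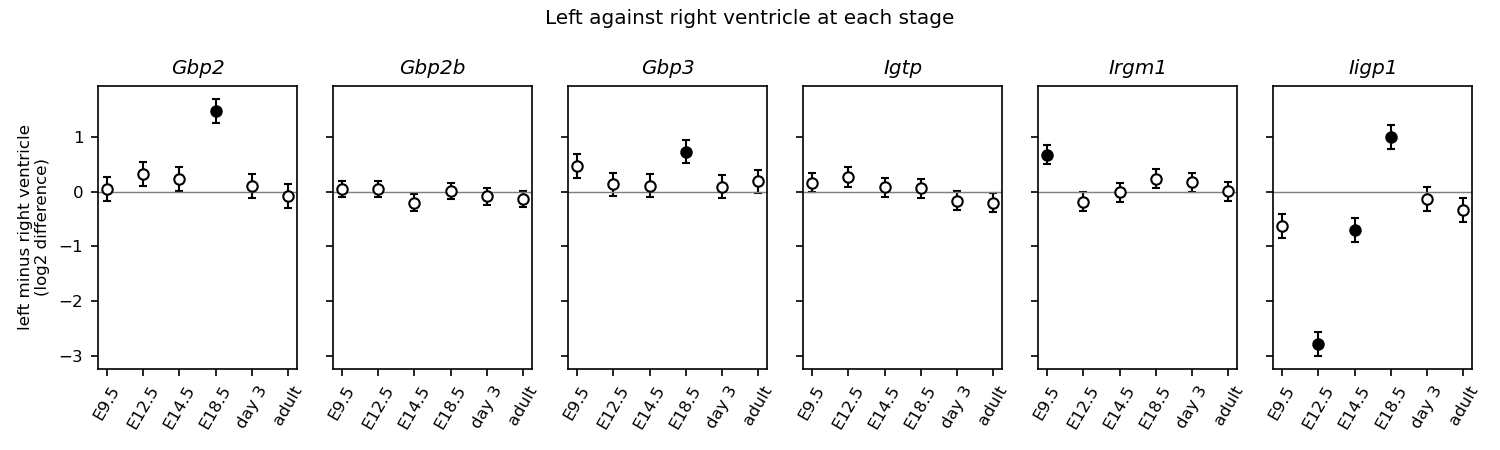
Left minus right ventricle difference (y axis, log2) at 6 stages (x axis) for each gene, with the SE of the limma fit as error bars (3 arrays per group) and filled points where the gene was called. Iigp1 runs from -2.78 at E12.5 to 1.00 at E18.5, Gbp2 has its largest difference, 1.48, at E18.5, and the genes lie between -0.33 and 0.19 at day 3 and in the adult.

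Of the other GBP and IRG genes, 7 were measured and 11 listed names were not analysed here. They were not among the 6 genes, and their stem cell step was tested. This list and those below were chosen with earlier results of these data known, so their tests are not independent of that choice. Of these 7 genes, 4 fell from stem cells to E7.5 and 0 rose, beside 25.2% of all genes called lower and 49.4% in either direction. Gbp7, the neighbour of Gbp3 on chromosome 3, fell by 4.06 ± 0.13 (8.87 to 4.81, adjusted p = 3.04e-17 in limma). Irgm2, another regulatory IRG and the neighbour of Igtp, fell by 2.41 ± 0.15 (7.61 to 5.20, 4.81e-12), Gbp6 by 1.72 and Ifi47, the effector Irgd, by 0.68. Gbp8, Irgc1 and Gm4951 were not called, and in stem cells Gbp8 (3.46), Gm4951 (3.82) and the called Ifi47 (5.20) were under the background limit.

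From E9.5 to E12.5, 6 of these 7 genes rose: Gbp8 by 1.85, Gbp7 by 1.83, Irgm2 by 1.59, Gbp6 by 0.64, Ifi47 by 0.46 and Gm4951 by 0.44. Beside them stand 20.1% of all genes called higher. Of the 6 genes that rose, Gbp6 alone had group means above the background limit at E9.5, and Ifi47 and Gm4951 had means under it at E12.5 as well. From day 3 to the adult 4 rose (22.3% of all genes did), led by Gbp6 with 3.65 ± 0.16 (from 6.20 and 6.47 in left and right ventricle to 10.13 and 9.84, adjusted p = 5.44e-15 in limma) and Irgm2, 2.47-fold. Over E9.5 to adult 6 rose, beside 41.6% of all genes, Gbp6 by 4.25, Gbp7 by 3.37 and Irgm2 by 3.37 among them. Gbp8 differed by 0.01 over that span: it averaged 5.40 and 4.98 at E12.5 and 3.21 and 3.50 in the adult. At E12.5 none of the 7 differed between the ventricles (-0.42 to 0.43), where Iigp1 did. At E18.5 Gbp8 (0.76) and Ifi47 (0.45) were higher in the left ventricle, where 2.84% of all genes were called higher. Gbp8 averaged 4.65 and 3.89 in left and right there, under the background limit, and Ifi47 5.83 and 5.38. The means of Gbp6 lay the other way, at 6.20 in the left and 6.86 in the right ventricle.

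Interferon ligands stayed low on average. Of 10 measured ligand genes, 0 to 4 were called in single steps from E8.5 on. At those steps 13.3% to 48.8% of all genes were called in either direction. From E9.5 to the adult 8 ligand genes were called higher (41.6% of all genes were), by 0.24 to 0.87. The list mean ran from 4.01 at E8.5 to 4.54 in the adult right ventricle, under the background limit. Single ligand genes were above it: Ifna1 averaged 5.25 to 6.27, under the limit only at E7.5, and Ifnz was at 6.04 in stem cells. Ifng, the gene of interferon gamma, averaged 2.89 to 3.37 over the groups.

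Receptor and kinase genes were present throughout. Ifngr1 and Ifngr2, the chains of the interferon gamma receptor, averaged 7.31 and 7.14 in stem cells and did not differ beyond the threshold at E7.5 (0.02 ± 0.08 and 0.13 ± 0.15). Of 11 receptor, Janus kinase and STAT genes, 9 rose and 1 fell from E9.5 to the adult, beside 41.6% of all genes called higher and 74.6% in either direction. Il10rb, a shared chain of the lambda interferon receptor, rose by 3.10, Ifngr2 by 2.24, Ifnar2 by 1.36 and Ifngr1 by 1.18. Ifnar1, a chain of the type I receptor, fell by 0.71, and the kinase genes Jak1 and Jak2 rose by 1.03 and 0.31. Stat2, which carries the type I signal, fell by 0.98 from stem cells to E7.5 and rose by 0.53 from E9.5 to the adult.

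Among 7 measured IRF genes, Irf1 had the largest difference at the stem cell step. Irf1 is itself induced by interferon gamma and activates GBP and IRG genes. It averaged 11.03 in stem cells and 7.91 at E7.5 (fell by 3.11 ± 0.07, adjusted p = 3.22e-20 in limma), and rose by 1.80 ± 0.07 from E9.5 to the adult. Irf9, counted with the receptors and STATs because it binds DNA with them, fell by 0.44 and rose by 0.99 at the same steps. Irf7 was near background, at 4.83 in stem cells, and was not called there (-0.03). From E9.5 to the adult, where 41.6% of all genes were called higher and 74.6% in either direction, 5 IRF genes rose (Irf1, Irf2 by 1.66, Irf7 by 1.08 and Irf8 by 0.99 among them) and 2 fell, Irf5 by 0.70 and Irf3 by 0.42.

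Of 7 inhibitors of interferon signalling, 4 fell and 1 rose from stem cells to E7.5, beside 25.2% of all genes called lower and 49.4% in either direction. Socs3, a feedback inhibitor of cytokine receptors, fell by 3.07 (10.75 to 7.69). Usp18, which blocks the type I receptor, fell by 1.71 and Socs1, which blocks Janus kinases, by 0.88. From E9.5 to the adult Usp18 rose by 2.25 and Socs3 by 1.44, Socs1 differed by 0.11 (not called), and Ptpn2 fell by 0.91.

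The wider sets of induced genes were lower at E7.5 too. Of 32 antiviral genes induced by type I interferon, 23 fell and 1 rose from stem cells to E7.5 (25.2% of all genes fell), among them Ifi35 by 5.34, the membrane protein Ifitm3 by 3.71, Parp14 by 3.68 and Rtp4 by 3.30. Of 18 other genes induced by interferon gamma 12 fell and 0 rose, with the immunoproteasome genes Psmb8 (10.23 to 5.47) and Psmb9 (by 2.62), the chemokine gene Cxcl10 (7.52 to 4.63) and the adhesion gene Icam1 (by 2.67). From E9.5 to the adult, with 41.6% of all genes called higher, 25 of 32 antiviral genes rose and 2 fell, Ifitm3 by 4.25 and Rtp4 by 3.91 leading, and 14 of the 18 interferon gamma genes rose and 1 fell, Psmb8 by 3.63 and Psmb9 by 3.27 leading. The median differences over this span were 1.32 and 1.097, beside 0.13 for all genes. Between the ventricles at E12.5, 0 of 32 and 0 of 18 were called by limma at the adjusted threshold. Of 10 autophagy conjugation genes, whose products place IRGs and GBPs on vacuoles, 5 rose and 1 fell from E9.5 to the adult, a share near that of all genes called higher (41.6%).

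**Figure D3:**
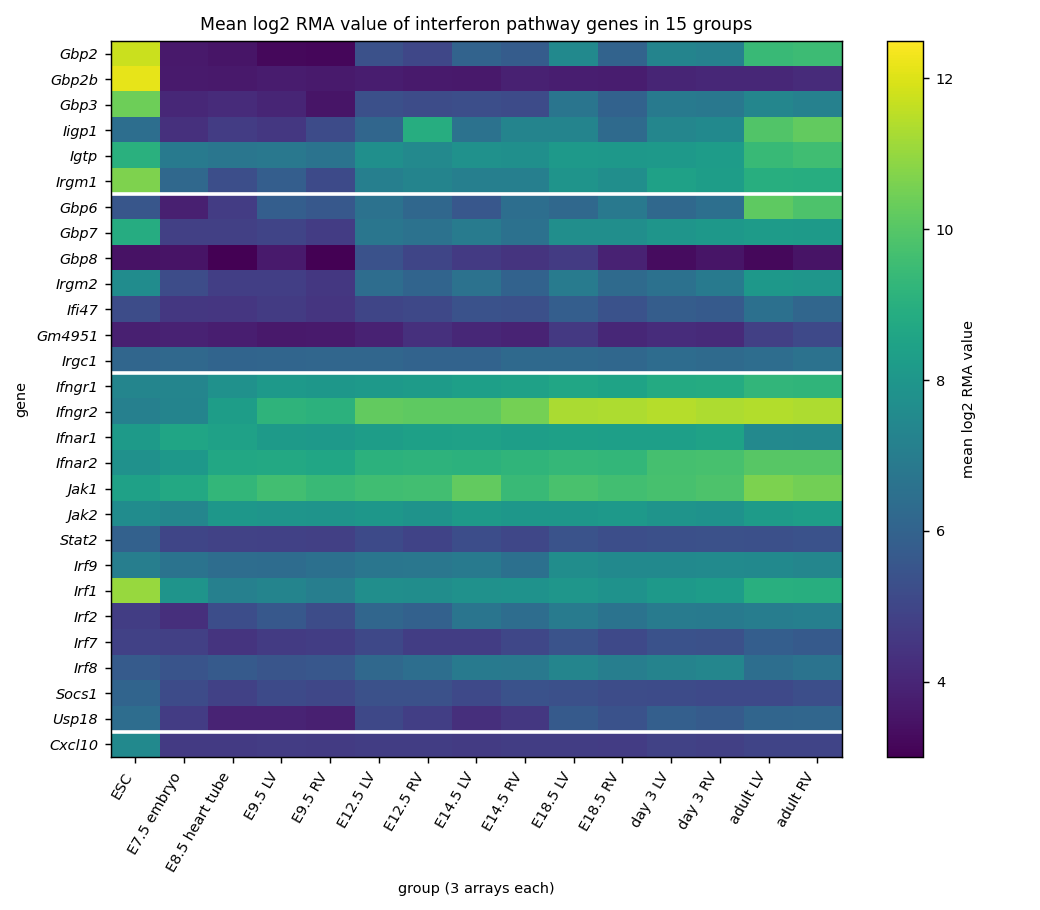
Mean log2 RMA value (colour) of the 6 genes, the other GBP and IRG genes, fixed pathway genes and Cxcl10 (rows) in the 15 groups of 3 arrays (columns). Stem cells, the first column, are high for Gbp2b (12.16), Gbp2 (11.75), Irf1 (11.03), Irgm1 (10.66) and Gbp3 (10.41), and the adult ventricles for Gbp6 (10.13 and 9.84) and Iigp1 (9.91 and 10.24).

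Leukocyte markers rose in the ventricles at steps where most of the 6 genes rose, while Gbp2b stayed at background. In bulk tissue, fewer cells of a type and less RNA per cell cannot be told apart. Of 24 leukocyte markers, 18 rose and 0 fell from E9.5 to E12.5, 15 rose and 1 fell from day 3 to the adult, and 21 rose and 0 fell from E9.5 to the adult. The shares of all genes called higher at these steps were 20.1%, 22.3% and 41.6%. The summed linear level of the 24, given for E9.5 above, ran from 4293 to 4519 in left and 3554 to 4220 in right ventricles at E12.5, and from 11286 to 13197 and 12585 to 19960 in the adult. Fibroblast markers rose as well, 11 of 12 from E9.5 to E12.5 and 12 of 12 from E9.5 to the adult, but 3 rose and 7 fell from day 3 to the adult. Ptprc was at background at E9.5 (3.68 left, 3.81 right) and at 7.22 and 7.38 in the adult. Csf1r, the macrophage growth factor receptor, went from 6.78 and 6.61 at E9.5 to 9.65 and 9.55 at E12.5 and 11.1 and 11.3 in the adult. The part of these cells in the rises was not tested.

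At E12.5, where Iigp1 differed 6.86-fold, the leukocyte list averaged 6.36 in the left and 6.28 in the right ventricle and 0 of 24 were called, where 1.26% of all genes were. Cardiomyocyte markers averaged 13.09 and 13.07, with 0 called. Fibroblast markers averaged 9.71 in the left and 10.21 in the right ventricle at E12.5, with 2 of 12 called higher in the right. Endothelial markers averaged 8.53 and 8.63, with 1 of 18 called higher in the right. In stem cells the leukocyte list had a mean of 5.00 and a summed linear level of 1146 to 1181. There 16 of the 24 markers were at or under the background limit, and Ptprc (3.09 to 3.81) and C1qa (4.09) were among these, where Gbp2b, Gbp2, Gbp3 and Irgm1 were at 10.41 or above. The other 8 were above it, with Coro1a (7.72), Laptm5 (7.63) and Cd68 (7.27) the highest. Coro1a averaged 6.87 and 7.12 and Laptm5 7.89 and 8.12 in the adult left and right ventricles.

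Over the 12 ventricle groups the correlation of group means with the leukocyte list was 0.974 for Gbp2, 0.960 for Igtp, 0.946 for Irgm1, 0.927 for Gbp3, 0.866 for Iigp1 and 0.743 for Gbp2b. Other cell types that rose gave high values too. With endothelial markers the correlation ran from 0.572 (Iigp1) to 0.902 (Gbp3). With fibroblast markers it ran from 0.533 (Gbp2b) to 0.861 (Irgm1). These are descriptions: the groups share an order in age, as well as pooling and tissue handling. Deviations of the 36 arrays from their group means correlated with these lists only between -0.28 and 0.34. Among the 6 genes the closest pair by group means was Gbp3 and Irgm1 (0.984), from different families and chromosomes, followed by Gbp2 and Igtp (0.977). The lowest was Gbp2b and Iigp1 (0.703). Within groups, deviations of the pairs correlated between -0.38 and 0.40.

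**Figure D4:**
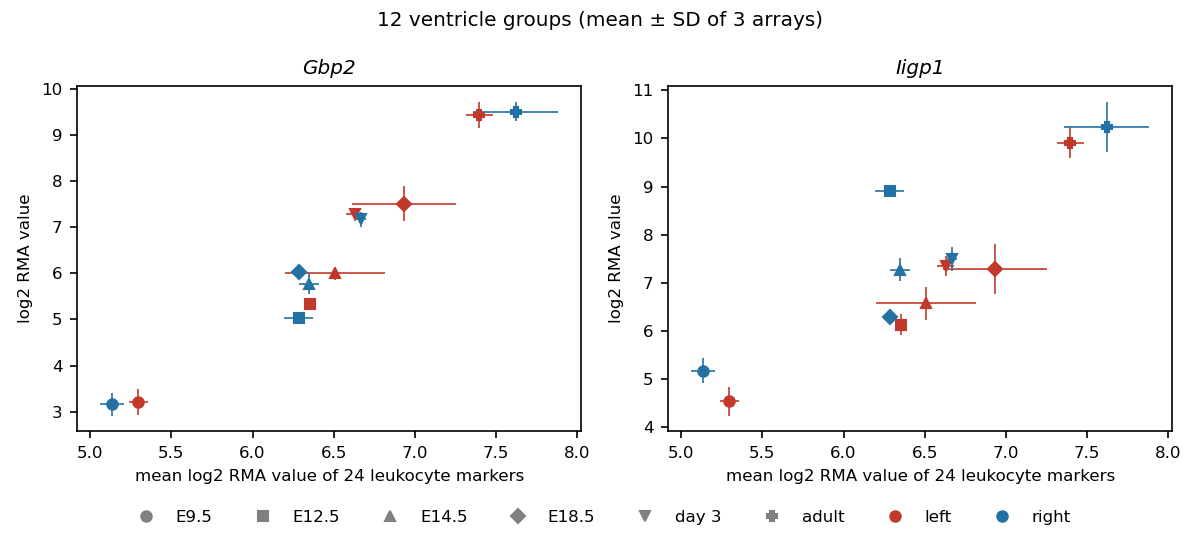
Group means of Gbp2 and Iigp1 (y axes, log2 RMA value) against the group mean of 24 leukocyte markers (x axis) over 12 ventricle groups, each point the mean ± SD of 3 arrays. Iigp1 in the right ventricle at E12.5 stands at 8.91 for a leukocyte mean of 6.28, above the left ventricle's 6.14 at 6.36.

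Genes with the most similar pattern were sought among those whose group means spanned at least 2 log2 units. Over all 15 groups the 5 nearest to Gbp2b among 5241 genes were Cxcl10 (r = 0.997), Pla2g1b (0.996), Pdcl2 (0.995), Accsl (0.994) and Tcl1 (0.994), each highest in stem cells. Such values rest on the single stem cell group. Over the 14 CD1 tissue groups, among 4389 genes, Gbp2 was nearest to Sqor (0.985), Ccl12 (0.985) and Ifi47 (0.985), and Igtp to Acy3 (0.992), Sqor (0.990) and Cd14 (0.988). Gbp3 was nearest to Coq8a (0.984), Ifitm3 (0.981) and Calcoco1 (0.981), and Irgm1 to Zfp385b (0.982), Nlrx1 (0.981) and Fcgrt (0.980). Iigp1 was nearest to Fcrls (0.944), Tmem159 (0.940) and the complement gene C1qb (0.935), at lower correlations than the others. Gbp2b spanned only 0.53 over these tissue groups, at background, and was nearest to Slc25a34 (0.953), Gpd1 (0.953) and Tnfsf10 (0.949), in a search of 4390 genes.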

How the data were processed

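RNA of 45 samples was hybridised to 1 array each. The deposited files hold 1 log2 value for every probe set and array. The authors obtained them with RMA (background correction, quantile normalization and probe summary), per the submitters' processing notes. The RMA version is not given in the sources used here. Sorted values spanned 0.202 across arrays on average, so shifts common to most genes are largely lost, and differences near background are compressed. Detection calls were not used. Identical arrays numbered 0 pairs.

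Of 45101 probe sets (64 controls), 34945 had 1 gene symbol in the platform annotation, 932 had several and 9160 were unlisted or without symbol. Of those with 1 symbol, 34741 matched a RefSeq gene, a count that removed none. Each of 18193 genes, named by platform symbol, was represented by its brightest probe set on average over the 45 arrays. The tests, all two-sided, were run with lmFit and eBayes of limma 3.58.1 (R 4.3.3), with Benjamini-Hochberg adjustment over all genes and a threshold of 0.05. For stage steps, same-numbered left and right ventricles were averaged, giving 27 values for 9 stages in 1 fit (18 residual degrees of freedom). Ventricles were compared in another fit, of 45 arrays as 15 groups (30 residual degrees of freedom), with an F-test over stages (5 degrees of freedom). The number of arrays limits the precision. Single-ventricle values come from separate fits. Other tools were pandas 2.3.3, NumPy 2.4.6 and Matplotlib 3.10.9 in Python 3.11.15. The fits were tested on simulated data.

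The members, lists and tests were chosen with earlier results of these data known. Named were the 6 genes, every measured gene of the other GBP and IRG list, a fixed set of signalling genes (Ifngr1, Ifngr2, Ifnar1, Ifnar2, Jak1, Jak2, Stat2, Irf1, Irf2, Irf7, Irf8, Irf9, Socs1 and Usp18 as measured), up to 4 called genes of each list with the largest change, and genes of similar pattern by Pearson r; the markers and Ifng were added to these. Listed genes without a match were not analysed here. Ventricles of the same number deviated together at E12.5 (correlations over all genes 0.271, 0.321 and 0.369). This pairing comes from the data, not the labels, and at the other stages at least 1 of 3 correlations was not above 0.1. Alternatives were a trended robust eBayes, fits without the other groups, a filter for genes above 6.80 in 3 arrays, other probe set rules, housekeeping scaling, stricter thresholds, single ventricles, each replicate left out, a replicate block, and leaving out the 3 arrays with markers of another tissue.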

Additional observations from a re-analysis of the deposited data

Results flagged for a closer look

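The left minus right difference depended on the stage for 2 of the 6 genes by the F-test over 6 stages in limma. For Iigp1 the adjusted p was 1.32e-08: left was lower at E12.5 (-2.78) and higher at E18.5 (1.00). It remained under the threshold in every alternative run, with an adjusted p of 8.45e-10 to 2.16e-07. For Gbp2 the adjusted p was 0.00887, with a difference of 1.48 at E18.5 and of -0.07 to 0.32 at the other stages. Without left replicate 2 of E18.5, the array with the highest mean of the visceral endoderm list at its stage, the adjusted p of Gbp2 was 0.0568.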

How the results depend on the processing

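For single genes, 1769 results under alternatives kept direction and side of the threshold, 28 crossed it upward, 67 crossed it downward and 2 reversed. Both reversals were of Iigp1 in left ventricles only, 0.44 from E12.5 to E14.5 and 0.72 from E14.5 to E18.5, where the right ventricle fell. Calls of Gbp2, Gbp3, Iigp1 and Irgm1 from E9.5 to E12.5, of Gbp2, Iigp1 and Igtp from day 3 to the adult, of Gbp2, Iigp1, Gbp3, Igtp and Irgm1 from E9.5 to the adult, of Iigp1 between ventricles at E12.5 and of Gbp2 at E18.5 held in every alternative run.

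The number of the 6 genes called moved as follows, and the causes were not tested. From E8.5 to E9.5 it was 1 without arrays standing apart and in right ventricles only. From E12.5 to E14.5 it was 1 at a threshold of 0.01, 0 at 2-fold and 0 in left ventricles only. From E14.5 to E18.5 it was 1 at 2-fold. From E18.5 to day 3 it was 5 with only the groups compared, 1 at a threshold of 0.01, and 0 at 2-fold and in left ventricles only. Between ventricles it was 0 at E9.5 at 0.01 and at 2-fold, 2 at E12.5 with only the groups compared, and 1 at E18.5 at 2-fold. At E14.5 it was 0 with only the groups compared, with the mean of all probe sets, at 0.01 and at 2-fold. For the mean of the stages it was 1 at 0.01 and 0 at 2-fold.

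With single replicates left out, the count was 0 to 1 from E8.5 to E9.5, 5 from E9.5 to E12.5, 0 to 1 from E12.5 to E14.5, 3 to 4 from E14.5 to E18.5, 1 to 3 from E18.5 to day 3, 4 to 5 from day 3 to the adult and 6 from E9.5 to the adult. Between ventricles it was 0 to 1 at E9.5, 1 at E12.5, 0 to 1 at E14.5, 1 to 3 at E18.5, 0 at day 3 and in the adult, 2 to 3 for the mean and 1 to 2 for the F-test. With the replicate number as a block, the count at E14.5 was 0 (Iigp1, adjusted p = 0.0638), the call of Gbp3 from E18.5 to day 3 was lost (0.0513), and other counts stayed within 1.5 times. Housekeeping scaling moved the median of all genes by 0.38 from day 3 to the adult and by 0.56 from E9.5 to the adult. It moved the share of calls that were higher from 45.8% to 83.2% and from 55.8% to 77.6% at these steps, from 54.1% to 72.1% from E12.5 to E14.5, from 38.7% to 59.0% from E14.5 to E18.5 and from 49.1% to 61.9% from E18.5 to day 3. Levels under 5.33, as for Gbp2b in all tissue, hold little signal.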
